A study of Mus musculus with 8 samples.

Results

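Cholesterol synthesis and its control by sterol regulatory element binding proteins (SREBPs) were followed in 28 named genes of the 55401 in the deposited tables. The genes were chosen by name, with earlier results of these data known, so the shares given for them are descriptions, not tests. They were 8 enzymes of the mevalonate and isoprenoid steps and 11 enzymes of the squalene and sterol steps. The rest were 5 genes of the SREBP system and 4 genes of sterol transfer or of the liver X receptor (LXR) response. All 28 were found once in each table, and 21 of them averaged a signal of 1 or more across the 8 libraries and were tested with the 9606 genes that passed the same filter. At 24 h of tamoxifen 16 of the 21 stood below their 0 h level, against 44.3% of all tested genes, and at 72 h 16 stood above it, against 53.3%. On the log2(signal + 1) scale the members' median change was -0.13 at 24 h and 0.08 at 72 h, against 0.01 at each over all genes. Limma's F test over the 3 times called 0 of the 21 at an adjusted p under 0.05 (0.344% of all genes). In that test 11 had an unadjusted p under 0.05 (13.9% of all genes).

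Cholesterol is built from acetyl-CoA through mevalonate, isoprenyl diphosphates, squalene and lanosterol. When sterols in the endoplasmic reticulum membrane run low, Scap carries the SREBP precursors to the Golgi, where they are cut and released as transcription factors for the enzyme genes, and Insig1 and Insig2 hold Scap back when sterols are plentiful. Srebf2 mainly drives cholesterol genes and Srebf1 mainly fatty acid genes. Tamoxifen binds the microsomal antiestrogen-binding site, which the proteins of Ebp and Dhcr7 form, and can block sterol enzymes. Pituitary cells need cholesterol for the membranes of hormone granules.

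The cells were AtT-20, a mouse pituitary corticotrope line known for its Pomc, of genotype ER-Pax7: they carry an introduced Pax7, the melanotrope pioneer factor, that tamoxifen activates. Libraries of ribosome-depleted RNA were made without tamoxifen (0 h) and after 24, 48 and 72 h of it, 2 per time, from cells grown in serum. The 0 h cells carry ER-Pax7 too, so activated Pax7, tamoxifen itself and time in culture cannot be told apart. Whether the paired libraries of a time came from separate cultures is not labelled, so p-values measure a spread that may be technical only.

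The deposited values were read as a normalized signal, the mean read coverage per exonic base of a gene. That unit was inferred from the columns and values, and comparisons of level between genes rest on it. Summed signal was 164236 to 178548 per library, and the labels give no read depth. The mitochondrial ribosomal RNA mt-Rnr1 stood at 25.1 in 72 h replicate 2 and at 1.14 to 5.97 in the other 7 libraries; its part in the 72 h values was not tested. The Pax7 locus had a signal of 12.6 to 14.4 over the 8 libraries. Of 10 corticotrope markers 8 had a signal of at least 1 in every library, while the receptor genes Crhr1 and Avpr1b were at 0 to 0.129. The sums of 8 markers of other pituitary lineages and of 11 fibroblast, immune and endothelial markers were 0.221 to 0.289 and 0.386 to 0.669. Differences are on the log2(signal + 1) scale, which understates the change of low genes, and come from 1 limma fit over all 8 libraries with Benjamini-Hochberg adjustment over the 9606 genes. Gene coordinates are GRCm38, 1-based.

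Among the members, mean signal over all libraries was highest for Insig1 (10.4), Fdps (8.99), Msmo1 (8.75), Sqle (7.48) and Dhcr7 (6.32). These 5 code for the anchor of Scap and for 4 enzymes spread along the pathway. The 7 members below the filter were Mvk, Ggps1, Tm7sf2, Hsd17b7, Abca1, Abcg1 and Mylip, with means of 0.0616 (Abca1) to 0.800 (Ggps1). Of the 3 LXR targets in the set, Abca1 and Abcg1, which export cholesterol, and Mylip, which marks lipoprotein receptors for destruction, each lay at or under 0.688 in every library. Acat2 has a neighbouring copy, Acat3, at 6.95 to 8.49, and reads of the 2 genes may not be fully separated. Parts of Fdps (26.7% of exonic bases), Fdft1 (18.8%), Scap (13.2%), Hmgcs1 and Tm7sf2 (12.1% each) lie inside exons of another gene, whose reads may not be separated. Counting the whole span of other genes, the shares were 100% for Mvd, 79.6% for Fdps, 68.5% for Lss and 46.6% for Hmgcs1.

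Promoter sequence is a feature that the choice of members did not use. RefSeq promoter windows (GRCm38.p6, 250 bases before to 50 after each start) were found for 23 of the 28 members; Fdps, Fdft1, Sqle, Stard4 and Abcg1 had no entry. The box CCAAT, bound by NF-Y, a factor that acts beside SREBPs, was present on either strand in 20 of the 23, against 41.1% of all 27025 genes with a window and 44.3% of 6384 matched genes that passed the filter. The GC box GGGCGG was present in 21 of 23, against 38.2% of all genes and 71.3% of those that passed the filter. The sterol regulatory element TCACNCCAC was matched in 1 member, Hmgcs1, and in 1.44% of all genes. A form shorter by 1 base, TCACNCCA, chosen after the sequences were seen and held within the longer form, was matched in Hmgcs1, Msmo1 and Srebf2 and in 4.97% of all genes. An LXR element, a pair of AGGTCA half-sites spaced by 4 bases, was matched in 0 members and 0.0148% of all genes. A match is a description of letters, not a site shown to be bound. A window without a match to these fixed letters is not shown to lack a site.

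Stretches upstream of 4 members are shown because they hold the matches beside genes whose values are given below. They lie beside a first enzyme, the SREBP gene itself, the brake on SREBP processing, and Ebp. For Ebp both 24 h libraries were above both 0 h libraries, as for 24.4% of all genes. Each stretch runs 5′ to 3′ on the gene's strand up to the first annotated start. Capitals mark TCACNCCAC or TCACNCCA and the CCAAT box, which reads ATTGG on the opposite strand.
Hmgcs1 promoter, chr13:119690101-119690350, plus strand: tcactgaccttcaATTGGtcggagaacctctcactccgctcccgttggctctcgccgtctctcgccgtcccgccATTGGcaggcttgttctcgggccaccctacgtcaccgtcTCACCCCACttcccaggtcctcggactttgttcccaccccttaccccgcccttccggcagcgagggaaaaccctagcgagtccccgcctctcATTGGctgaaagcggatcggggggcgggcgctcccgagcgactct
Srebf2 promoter, chr15:82147019-82147180, plus strand: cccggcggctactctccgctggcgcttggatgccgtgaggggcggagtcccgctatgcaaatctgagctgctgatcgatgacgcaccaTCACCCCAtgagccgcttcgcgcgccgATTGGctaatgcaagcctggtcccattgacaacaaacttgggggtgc
Insig1 promoter, chr5:28071162-28071362, plus strand: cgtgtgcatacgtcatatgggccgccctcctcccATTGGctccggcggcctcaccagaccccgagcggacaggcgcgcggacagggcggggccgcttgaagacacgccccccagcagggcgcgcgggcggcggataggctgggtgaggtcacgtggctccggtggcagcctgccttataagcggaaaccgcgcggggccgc
Ebp promoter, chrX:8193513-8193762, minus strand: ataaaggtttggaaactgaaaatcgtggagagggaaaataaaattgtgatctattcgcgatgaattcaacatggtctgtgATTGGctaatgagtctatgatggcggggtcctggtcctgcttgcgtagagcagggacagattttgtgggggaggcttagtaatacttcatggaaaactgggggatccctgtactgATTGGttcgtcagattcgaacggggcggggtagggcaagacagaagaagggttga

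In the Hmgcs1 stretch the sterol element starts at base -137, counted back from the RefSeq start, with CCAAT boxes starting at -237, -176 and -45. In Srebf2 the shorter element starts at -162 and the CCAAT box at -135. Insig1 has 1 CCAAT box, at -216, and Ebp has 2, at -170 and -55, with no match to the sterol element in its window. The map shows CCAAT boxes in most windows and matches to the sterol element in few.

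**Figure D1:**
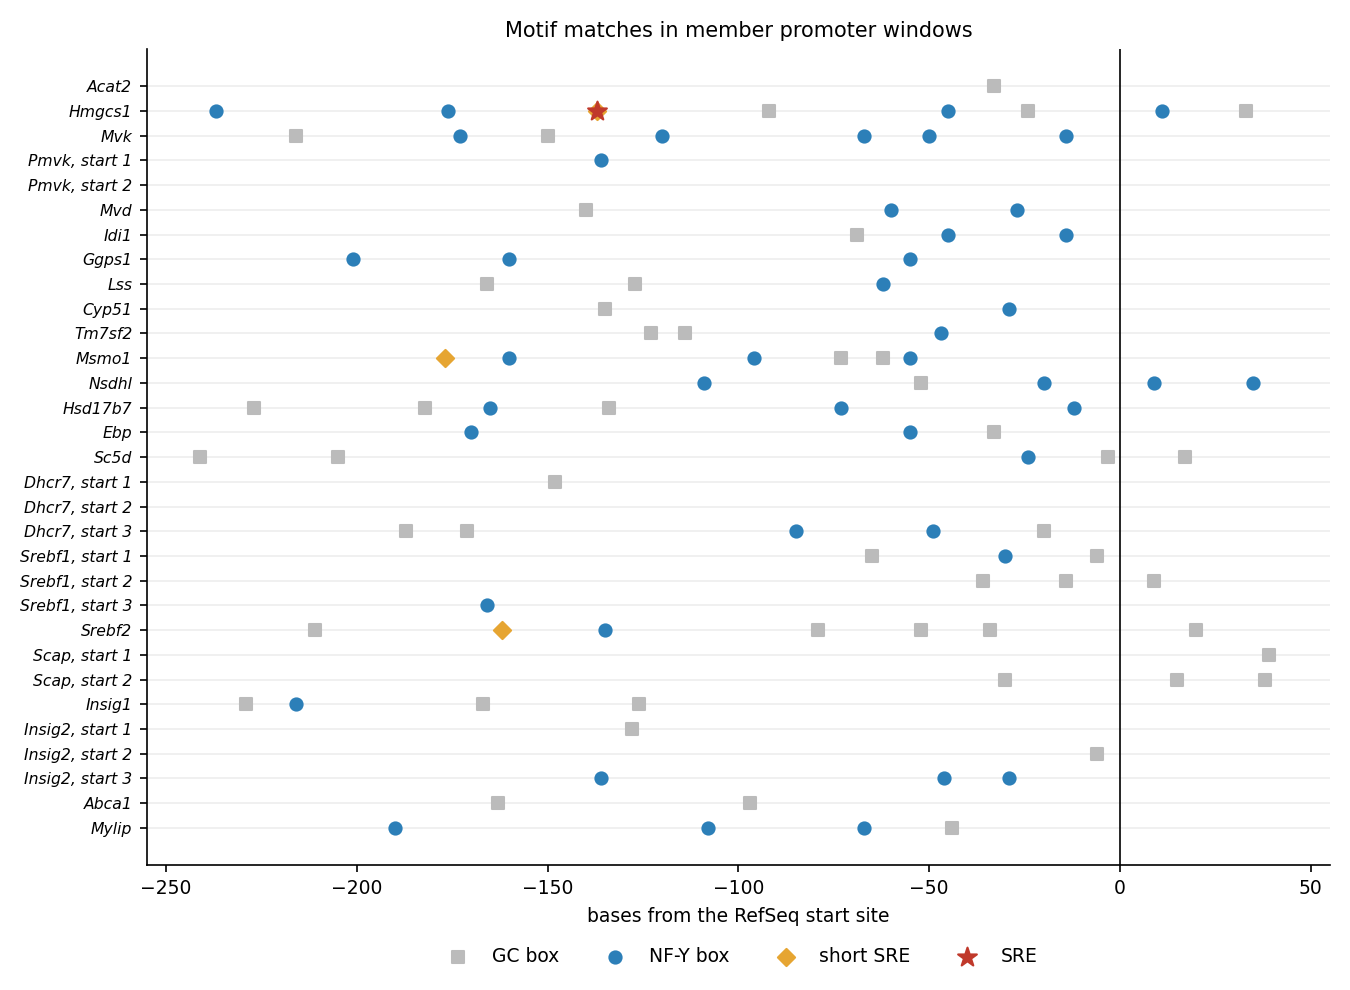
Places of motif matches in the promoter windows of 23 members, as bases from the RefSeq start (0) on the horizontal axis, 1 line per annotated start (numbered by genome position). NF-Y box is CCAAT, GC box is GGGCGG, SRE is TCACNCCAC and short SRE is TCACNCCA; CCAAT was found for 20 of 23 members and the full SRE for Hmgcs1 alone.

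The first question was how the pathway stood after 24 h of tamoxifen. Of 21 tested members 16 (76.2%) were below their 0 h level, against 44.3% of all tested genes, and the members' median log2 change was -0.13 (-0.043 without 24 h replicate 1), against 0.01 over all genes. Limma called 0 of 21 members at an adjusted p under 0.05, where 0.229% of all genes were called. At an unadjusted p under 0.05, 7 members were lower (Hmgcs1, Pmvk, Idi1, Fdps, Cyp51, Nsdhl and Insig1), against 5.62% of all genes, and 1, Ebp, was higher, against 7.59%. For 11 members both 24 h libraries lay below both 0 h libraries (17.8% of all genes), and for Ebp and Insig2 both lay above (24.4% of all genes). Median changes were -0.19 for the 6 mevalonate and isoprenoid enzymes tested, -0.06 for the 9 squalene and sterol enzymes and -0.13 for the 5 genes of the SREBP system.

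The 24 h libraries differed from each other. Replicate 1 at 24 h was the lowest of the 8 libraries for 14 of 21 members, against 15.9% of all genes, and the highest for 0 members, against 28.9% of all genes. The median member differed from the 0 h mean by -0.17 on the log2 scale in replicate 1 and by -0.04 in replicate 2. The members' median 24 h change was -0.043 without 24 h replicate 1 and -0.17 without 24 h replicate 2. Without 24 h replicate 2 the changes of Pmvk and Insig1 were -0.38 and -0.46, against -0.25 and -0.27 with all libraries. The members' median was -0.083 without 0 h replicate 1 and -0.16 without 0 h replicate 2. In the limma fit on the 0 and 24 h libraries alone, 4 members were lower at an unadjusted p under 0.05. The share of all genes at that threshold was not computed for that fit. Replicate 2 alone was below both 0 h libraries for 11 of 21 members, against 37.3% of all genes. Corticotrope markers were also lower at 24 h, 7 of 8 tested (44.3% of all genes), with a median of -0.26. The list's summed signal was 907 and 896 at 0 h, 703 and 773 at 24 h, 768 and 756 at 48 h and 890 and 913 at 72 h. Pomc made up most of that sum (634 and 623 at 0 h). At 48 h 4 of the 8 tested markers were higher than at 0 h (52.3% of all genes) and 4 lower. At 72 h 5 of the 8 were higher (53.3% of all genes) and 3 lower. In limma, 3 were higher and 3 lower at an unadjusted p under 0.05 (9.18% and 6.49% of all genes). After adjustment 2 of these markers were called, both lower, the glucocorticoid receptor gene Nr3c1 and the granule gene Chgb (2.01% of all genes called). The part of the 24 h marker shift in the members' values was not tested, and in bulk RNA fewer cells of a type and less RNA per cell cannot be told apart.

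**Figure D2:**
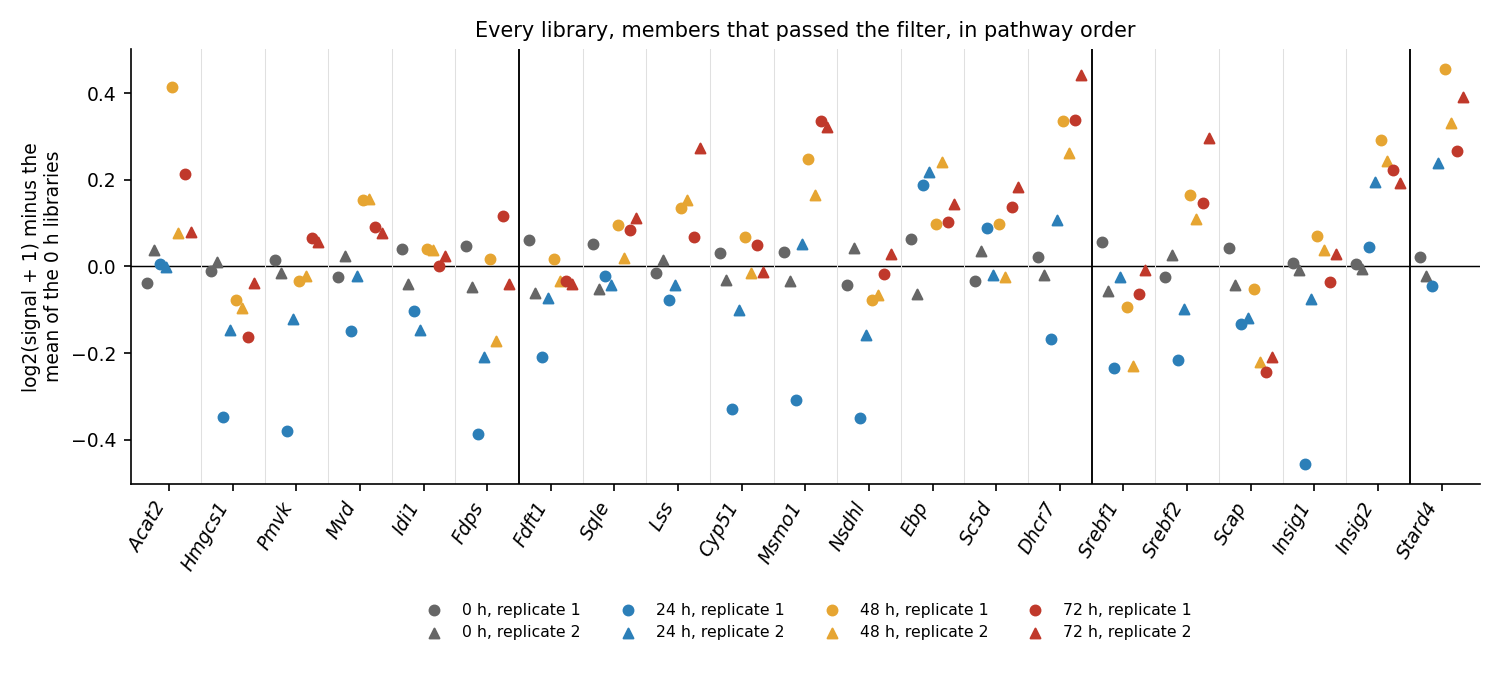
Difference of each library from the 0 h mean, on the log2(signal + 1) scale, for the 21 members that passed the filter; colour gives the hours of tamoxifen, shape the replicate, and black lines divide the mevalonate, sterol, SREBP and sterol transfer groups. The 24 h replicate 1 circles are the lowest points of 14 members, and the 72 h points of Msmo1, Dhcr7, Srebf2 and Stard4 lie above 0.

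In the mevalonate branch, Hmgcs1, which makes HMG-CoA, had a signal of 3.99 and 4.07 at 0 h, 2.95 and 3.54 at 24 h, 3.77 and 3.71 at 48 h and 3.49 and 3.90 at 72 h. It was the one enzyme of the branch whose 6 tamoxifen libraries were all below both 0 h libraries. The share of all genes with all 6 on 1 side of the 0 h pair was not computed, here or for the genes below. Its change at 24 h was -0.25 (95% interval -0.42 to -0.07, limma adjusted p = 0.254). Pmvk, the phosphomevalonate kinase, stood at 5.99 ± 0.11, 4.90 ± 0.75, 5.86 ± 0.037 and 6.29 ± 0.036 at 0, 24, 48 and 72 h (SD, n = 2), with both 24 h libraries lowest. Mvd, the decarboxylase that follows, stood at 1.11 ± 0.051, 0.987 ± 0.12, 1.35 ± 0.0012 and 1.23 ± 0.016 at 0, 24, 48 and 72 h (SD, n = 2). Idi1, the isopentenyl diphosphate isomerase, stood at 3.27 ± 0.17, 2.92 ± 0.084, 3.39 ± 0.0064 and 3.31 ± 0.053 at 0, 24, 48 and 72 h (SD, n = 2), and its 24 h libraries (2.98 and 2.86) were the lowest of the 8.

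Fdps (chromosome 3, 89093588 to 89101959), which makes farnesyl diphosphate, had the most negative 24 h change of the tested members on the log2(signal + 1) scale. By the ratio of 24 h to 0 h means, Nsdhl was lower (0.719, against 0.795 for Fdps). In the libraries one by one, Fdps was as follows. Its signal was 9.89 and 9.20 at 0 h, 7.05 and 8.12 at 24 h, 9.66 and 8.35 at 48 h and 10.4 and 9.25 at 72 h. Both 24 h libraries were below the other 6, and the change at 24 h was -0.30 (SE 0.10, 95% interval -0.52 to -0.07, limma adjusted p = 0.279). From 24 to 72 h it was 0.34 (0.11 to 0.56, limma adjusted p = 0.234). Acat2, the thiolase at the head of the pathway, had 2.17 and 2.34 at 0 h, 2.26 and 2.25 at 24 h, 3.33 and 2.43 at 48 h and 2.77 and 2.44 at 72 h. Its 48 h replicate 1 stood apart from the others, and its neighbour Acat3 was also highest there.

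Among the squalene and sterol enzymes, Fdft1, the squalene synthase, stood at 2.09 ± 0.18, 1.80 ± 0.19, 2.07 ± 0.079 and 2.01 ± 0.0095 at 0, 24, 48 and 72 h (SD, n = 2), with both 24 h libraries below both 0 h libraries. Sqle, the squalene epoxidase and a control point of the pathway, had 7.60 and 7.003 at 0 h, 7.17 and 7.05 at 24 h, 7.87 and 7.41 at 48 h and 7.79 and 7.97 at 72 h, so its 24 h libraries overlapped those of 0 h. Lss, which closes squalene oxide into lanosterol, stood at 1.24 ± 0.032, 1.15 ± 0.036, 1.47 ± 0.022 and 1.52 ± 0.25 at 0, 24, 48 and 72 h (SD, n = 2). The 72 h change of Lss was 0.17 against 0 h (0.01 to 0.33, limma adjusted p = 0.297) and 0.23 against 24 h (0.07 to 0.39, limma adjusted p = 0.250). Cyp51, the lanosterol demethylase, stood at 5.58 ± 0.20, 4.69 ± 0.63, 5.71 ± 0.27 and 5.67 ± 0.21 at 0, 24, 48 and 72 h (SD, n = 2), and both of its 24 h libraries (4.24 and 5.14) were below the other 6.

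Nsdhl, an X-linked (X, 72918557 to 72958514) enzyme of demethylation, had 1.25 and 1.38 at 0 h, 0.816 and 1.07 at 24 h, 1.20 and 1.21 at 48 h and 1.29 and 1.36 at 72 h. The 24 h libraries were the lowest and the 72 h libraries overlapped those of 0 h. Its 24 h change was -0.25 (-0.42 to -0.09, limma adjusted p = 0.229), the smallest adjusted p of the members in that comparison.

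Msmo1, the methylsterol monooxygenase (chromosome 8, 64718139 to 64733792), had a signal of 8.21 and 7.79 at 0 h, 6.27 and 8.32 at 24 h, 9.69 and 9.08 at 48 h and 10.4 and 10.2 at 72 h. The 24 h libraries lay on either side of the 0 h pair, while all 48 and 72 h libraries were above it. The change was 0.33 at 72 h against 0 h (0.07 to 0.58, limma adjusted p = 0.200) and 0.46 against 24 h (0.20 to 0.71, limma adjusted p = 0.201).

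Dhcr7, the reductase that yields cholesterol (chromosome 7, 143823145 to 143848410), had 5.57 and 5.38 at 0 h, 4.76 and 5.97 at 24 h, 7.16 and 6.76 at 48 h and 7.18 and 7.80 at 72 h. As with Msmo1, the 24 h libraries straddled the 0 h pair and the 4 later libraries were above all others. The 72 h mean was 1.37 times the 0 h mean, with a log2 change of 0.39 (SE 0.09, 0.18 to 0.61, limma adjusted p = 0.0926). With either 24 h library left out of the fit, limma called both genes higher at 72 h against 0 h, with adjusted p = 0.0215 and 0.0216 for Dhcr7 and 0.0277 and 0.0278 for Msmo1. Those fits called 313 (3.26%) and 320 (3.33%) of all genes at 72 h, against 193 with all libraries. The 0 and 72 h means are the same in those fits. The fit on the 0 and 72 h libraries alone gave limma adjusted p = 0.0455 for Dhcr7 and called 145 of all genes (1.51%).

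Ebp, the sterol isomerase (X, 8185329 to 8193512), had 2.46 and 2.17 at 0 h, 2.78 and 2.85 at 24 h, 2.55 and 2.92 at 48 h and 2.56 and 2.66 at 72 h. Each tamoxifen library was above both 0 h libraries, and the 24 h mean was the highest of the 4 times. The 24 h change was 0.20 (0.05 to 0.36, limma adjusted p = 0.2875). Sc5d, a sterol desaturase, stood at 2.14 ± 0.11, 2.21 ± 0.17, 2.22 ± 0.19 and 2.50 ± 0.076 at 0, 24, 48 and 72 h (SD, n = 2), and only its 72 h libraries (2.45 and 2.56) were both above the 0 h pair.

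Of the enzymes below the filter, Mvk, the mevalonate kinase, was at 0.584 to 0.746 over the 8 libraries, Ggps1, which makes geranylgeranyl diphosphate, at 0.730 to 0.884, and Hsd17b7, a sterol ketone reductase, at 0.294 to 0.374. Tm7sf2, a sterol reductase, ranged from 0.466 (24 h replicate 1) to 1.01 (the second 0 h library), and the 0 h pair alone spanned 0.644 to 1.01. In the limma fit without a filter, over 37675 genes, 0 of the 7 low members were called at any comparison, where 0.0106% of all genes were called at 24 h, 0.0133% at 48 h and 0.167% at 72 h, and 1, Mylip, had an unadjusted p under 0.05 at each time against 0 h.

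**Figure D3:**
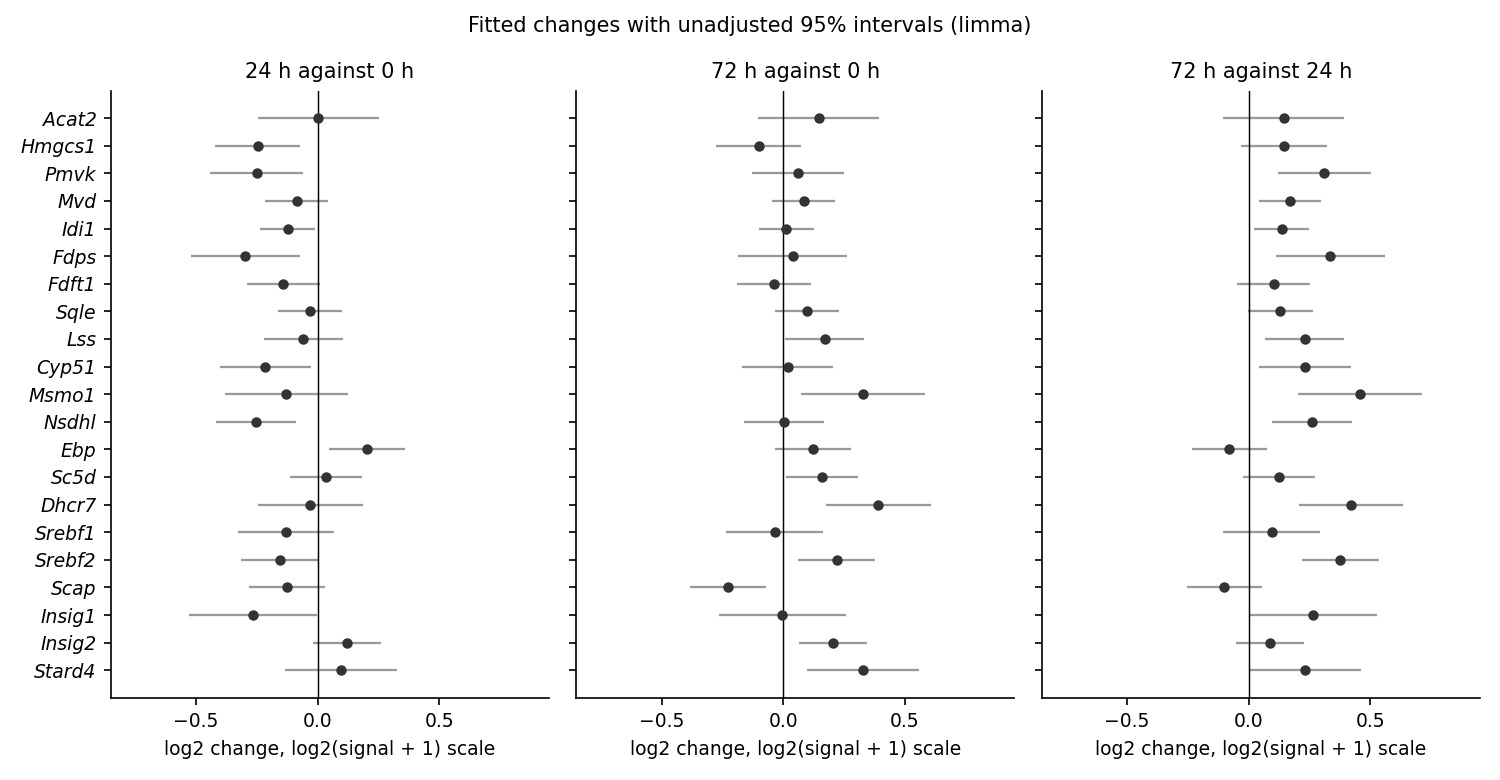
Fitted log2 changes of the 21 tested members (points) with unadjusted 95% intervals (lines) for 24 h against 0 h, 72 h against 0 h and 72 h against 24 h, from the limma fit. The points lie mostly left of 0 in the first panel and right of 0 in the third, and after adjustment over all genes none of the intervals belongs to a called change.

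Genes that control the pathway did not all lie on the same side of 0 h. Srebf2 (chromosome 15, 82147181 to 82205379) had 2.49 and 2.61 at 0 h, 2.06 and 2.32 at 24 h, 2.98 and 2.83 at 48 h and 2.93 and 3.36 at 72 h. Its 24 h libraries were below, and its 48 and 72 h libraries above, both 0 h libraries. The difference between 72 h and 24 h, 0.38 (SE 0.07, 0.22 to 0.54, ratio of means 1.44), had the smallest unadjusted p of the members in that comparison (0.000740, limma adjusted p = 0.154). The F test over the 3 times gave an adjusted p of 0.143 in limma.

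Srebf1 had 3.65 and 3.31 at 0 h, 2.80 and 3.40 at 24 h, 3.20 and 2.82 at 48 h and 3.28 and 3.45 at 72 h. At 24 and 72 h its libraries overlapped those of 0 h, and the 72 h change was -0.04 (-0.23 to 0.16). Scap, the escort protein, had 4.67 and 4.34 at 0 h, 4.02 and 4.07 at 24 h, 4.31 and 3.72 at 48 h and 3.65 and 3.76 at 72 h. All 6 of its tamoxifen libraries were below both 0 h libraries, and the 72 h change was -0.23 (-0.38 to -0.07, limma adjusted p = 0.151). Of the 21 tested members Scap alone had a 72 h interval wholly below 0, against 6.49% of all genes lower at an unadjusted p under 0.05 in limma.

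Insig1, an SREBP target as well as its brake (chromosome 5, 28071363 to 28078662), had 10.8 and 10.7 at 0 h, 7.55 and 10.1 at 24 h, 11.3 and 11.1 at 48 h and 10.5 and 10.97 at 72 h. The low value is that of 24 h replicate 1, and replicate 2 lies much nearer the 0 h pair. The 24 h change was -0.27 (-0.53 to -0.0039, limma adjusted p = 0.375). Its relative Insig2, which is not a usual SREBP target, had 3.63 and 3.60 at 0 h, 3.76 and 4.28 at 24 h, 4.65 and 4.47 at 48 h and 4.38 and 4.27 at 72 h. Each tamoxifen library of Insig2 was above the 0 h pair, with a 48 h change of 0.27 (0.13 to 0.41, limma adjusted p = 0.138).

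Stard4, a carrier of free cholesterol between membranes and a known sterol-regulated gene, had 3.96 and 3.82 at 0 h, 3.74 and 4.77 at 24 h, 5.71 and 5.16 at 48 h and 4.88 and 5.41 at 72 h. Its 48 and 72 h libraries were above all of 0 h and 24 h, and its 24 h libraries lay on either side of the 0 h pair. The change was 0.39 at 48 h (0.16 to 0.62, limma adjusted p = 0.175; 0.0483 in the fit on the 0 and 48 h libraries alone, which called 111, or 1.16%, of all genes) and 0.33 at 72 h (0.10 to 0.56, limma adjusted p = 0.159). Among the LXR targets, Mylip had 0.688 and 0.606 at 0 h and 0.386 to 0.492 in the 6 tamoxifen libraries. Its later libraries were below both 0 h libraries at 24 h (16.1% of all genes in the fit without a filter), 48 h (16.8%) and 72 h (17.7%). At 72 h its change in the limma fit without a filter was -0.20 (-0.32 to -0.07, adjusted p = 0.2765). Abcg1 was at 0.383 to 0.478 and Abca1 at 0.0392 to 0.0828 over the 8 libraries, with the 0 h values inside those ranges; at 48 h both Abcg1 libraries (0.404 and 0.430) were below the 0 h pair.

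**Figure D4:**
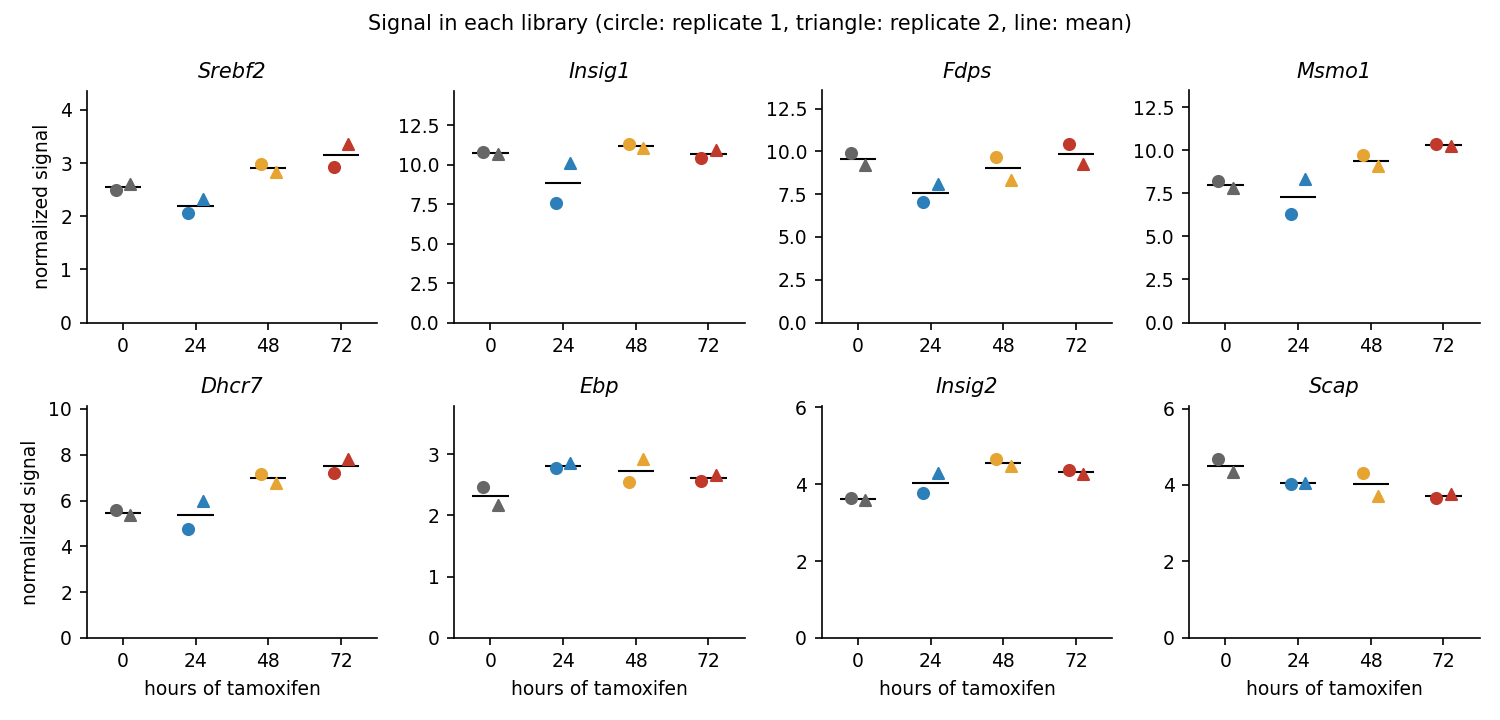
Normalized signal (vertical axes from 0) in each library by hours of tamoxifen for 8 members; circles are replicate 1, triangles replicate 2 and lines the means of n = 2. For Insig1, Msmo1 and Dhcr7 the 24 h points are far apart, while for Ebp, Insig2 and Scap every tamoxifen point lies on 1 side of the 0 h points. The share of all genes with that last pattern was not computed.

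At 48 h, 14 of 21 members (66.7%) were above their 0 h level, against 52.3% of all genes, with a median of 0.05 (0.10 without 48 h replicate 2), against 0.00 over all genes. Limma called 0 members (0.552% of all genes), with 5 higher at an unadjusted p under 0.05 (Mvd, Ebp, Dhcr7, Insig2 and Stard4; 5.32% of all genes) and 0 lower (5.19%). Both 48 h libraries were above both 0 h libraries for 10 members (24.3% of all genes) and below for 5 (22% of all genes).

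At 72 h, 16 of 21 (76.2%) were above 0 h, against 53.3% of all genes, with a median of 0.08, against 0.01 over all genes. The median was 0.05 without 0 h replicate 2, and 0.028 over all 28 members in the fit without a filter. Limma called 0 members (2.01% of all genes). At an unadjusted p under 0.05, 7 were higher (Lss, Msmo1, Sc5d, Dhcr7, Srebf2, Insig2 and Stard4; 9.18% of all genes) and 1, Scap, was lower (6.49%). Both 72 h libraries were above both 0 h libraries for 12 members (27.4% of all genes) and below for 2, Hmgcs1 and Scap (22.4%). By group the medians were 0.12 for squalene and sterol enzymes, 0.05 for mevalonate enzymes and 0.00 for the SREBP system. The unadjusted count of 7 fell with 0 h replicate 2 or 72 h replicate 2 left out. The share of all genes at that threshold was not computed for those fits.

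The last comparison set 72 h against 24 h. Of 21 members, 19 (90.5%) were higher at 72 h, the exceptions being Ebp and Scap, against 47.1% of all genes, and the median was 0.17 (0.27 with a pseudocount of 0.1), against -0.01 over all genes. Both 72 h libraries lay above both 24 h libraries for 16 members (20.7% of all genes). At an unadjusted p under 0.05, 12 members were higher (7.24% of all genes) and 0 lower (6.32%), and limma called 0 after adjustment, where 0.0208% of all genes were called. All 6 mevalonate and isoprenoid enzymes were among the 19, with changes of 0.14 to 0.34, and 8 of 9 squalene and sterol enzymes. Without 24 h replicate 2 limma called 4 members (Pmvk, Msmo1, Dhcr7 and Insig1) and 61 of all genes (0.635%), against 2 with all libraries. The unadjusted count of 12 fell with either 72 h library left out. The share of all genes at that threshold was not computed for those fits. This comparison uses the same 24 h and 72 h libraries as those with 0 h and adds no independent sample, and the 3 comparisons with 0 h share the 0 h libraries.

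Related gene lists were set beside the members. Of 16 fatty acid synthesis genes driven mainly by Srebf1, 14 were tested. At 24 h 10 of 14 were lower (44.3% of all genes; median -0.08), 5 of them at an unadjusted p under 0.05 (5.62% of all genes). From 24 to 72 h 14 of 14 were higher (47.1% of all genes; median 0.19), 9 of them at an unadjusted p under 0.05 (7.24% of all genes), and limma called 0 at either comparison. Genes of SREBP cleavage and sterol-regulated degradation, 15 tested, had medians of 0.01 at 24 h and -0.01 at 72 h, with 0 called by limma. At an unadjusted p under 0.05, 1 of them was lower at 24 h (5.62% of all genes), and 2 were lower (6.49%) and 1 higher (9.18%) at 72 h. The 12 tested enzymes of the isoprenoid branches, which attach or extend the products of Fdps and Ggps1, had a median of 0.08 at 24 h and -0.05 from 24 to 72 h, opposite in sign to the members, with 0 called and 3 higher at an unadjusted p under 0.05 at 24 h (7.59% of all genes). Of 10 LXR and retinoid X receptor genes and LXR targets, 5 were tested, and no LXR gene was among these 5. The 5 had medians of -0.06 and -0.01 at 24 and 72 h, with 0 called. At each time 1 was lower at an unadjusted p under 0.05 in limma (5.62% and 6.49% of all genes).

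Among 13 tested genes of cholesterol uptake, transfer and storage, limma called 0 at 24 h (0.229% of all genes). It called 1 lower at 48 h and at 72 h (0.552% and 2.01% of all genes). At an unadjusted p under 0.05, 2 were lower and 1 higher at 24 h (5.62% and 7.59% of all genes). At 48 h 2 were lower and 0 higher (5.19% and 5.32%), and at 72 h 2 were lower and 2 higher (6.49% and 9.18%). The called gene was Scarb2, a lysosomal membrane protein that also carries cholesterol. Its signal was 4.91 and 4.83 at 0 h, 4.22 and 3.73 at 24 h, 3.37 and 3.46 at 48 h and 3.41 and 3.32 at 72 h. Every tamoxifen library was below the 0 h pair. Scarb2 fell by 0.41 on the log2 scale at 48 h and by 0.43 at 72 h (limma adjusted p = 0.0359 and 0.0171).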

How the data were processed

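Each library has 1 table with 1 value per gene, and 8 tables (4 groups of 2) were read. The deposited values, normalized by the authors, were read as a signal, mean read coverage over merged exons; the unit was inferred from the columns and values, and no source used here gives the scaling. Per the submitters' processing notes, the tools were HISAT2 2.2, SAMtools 1.12 and deepTools 3.5, with builds named mm10 and GRCm38. No source used here says which tool made the values or whether it used strand, so reads of overlapping genes may not be separated. The molecule field of the labels says genomic DNA, while the protocol and design say RNA, and the values were read as RNA.

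Genes with a mean of at least 1 were fitted as log2(signal + 1) with limma 3.58.1 under R 4.3.3. The model held the tamoxifen group alone, an intensity trend and 4 residual degrees of freedom, at a threshold of 0.05. Members below the filter come from the same fit without a filter. Fit and motif search were tested on simulated data. All 28 members are named; values in every library follow a rule (the 3 most negative changes at 24 h, the 3 most positive at 72 h, Srebf1, Srebf2, Insig1, Ebp and Dhcr7), with Hmgcs1, Acat2, Sqle, Scap, Insig2 and Mylip added after their values were seen. Genes outside the members are named where called. The members and lists were chosen with earlier results of these data known. Alternatives were another filter, pseudocount or scaling (trimmed mean of log ratios, or quantile), a replicate block, 2 groups only, and each library left out. The labels do not say whether replicate numbers pair the libraries.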

Additional observations from a re-analysis of the deposited data

How the results depend on the processing

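Of 1620 recomputed changes of single members, 12 reached the threshold, each with a 24 h library left out or with only the 2 groups compared in the fit, and each in the direction reported. Members called were 0 without the replicate block and 0 with it in each comparison, while calls over all genes went to 18, 24, 154 and 1 with the block (from 22, 53, 193 and 2). Same-numbered libraries deviated from their group means with r between -0.0163 and 0.402 over the 6 pairs of times, 3 of them above 0.1. Across genes, 24 h replicate 2 correlated at 0.995 with 48 h replicate 2 and at 0.9836 with 24 h replicate 1. The first 48 h library correlated at 0.9892 with 72 h replicate 1 and at 0.9848 with 48 h replicate 2. For 0 h the paired libraries were closest to each other (0.9941). The labels do not say whether the numbers pair samples, so the block was kept as an alternative.

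With libraries left out in turn, members called ranged from 0 to 2 at 24 h and at 72 h against 0 h, were 0 at 48 h, and ranged from 0 to 4 for 72 h against 24 h and for the F test. Medians ranged from -0.17 to -0.043 (without 24 h replicate 1) at 24 h, 0.04 to 0.10 at 48 h, 0.05 to 0.09 at 72 h and 0.14 to 0.25 for 72 h against 24 h. Members at an unadjusted p under 0.05 ranged from 2 to 12 (lower, 24 h), 2 to 6 (higher, 72 h) and 6 to 15 (higher, 72 h against 24 h). These unadjusted counts and the shorter sterol element were added after seeing the data.

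With only the 2 groups compared, 1 member was called at 48 h (Stard4, with 1.16% of all genes called) and 1 at 72 h (Dhcr7, with 1.51%). At 24 h 4 members were lower at an unadjusted p under 0.05 in limma, and the share of all genes was not computed. The 72 h median was 0.028 over all 28 members without a filter, and the median for 72 h against 24 h was 0.27 with a pseudocount of 0.1. The cause was not tested. No read depth is labelled, so counting error behind the low members could not be given.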
